A study of Rattus norvegicus and Bos taurus with 6 samples.

Results

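The stromal progenitor nuclei of 2 brown fat depots of the rat were described: the nuclei that carry the adipose stem and progenitor cell (ASPC) genes in the thoracic aortic perivascular fat (taPVAT) and in the subscapular brown adipose tissue (BAT). A nucleus was taken as a member when the unique molecular identifiers (UMIs, 1 for each transcript molecule captured) over 9 stromal genes (Pdgfra, Dcn, Fbn1, Col1a2, Bicc1, Mfap5, Scara5, Dpp4 and Pi16, summed as A) came to at least 3 and to more than 2 times the UMIs over 9 genes of other cells (Ptprb, Pecam1, Flt1, Ptprc, Mrc1, Dock2, Notch3, Myh11 and Rgs5, summed as B). By this rule 255 of 2708 taPVAT nuclei and 84 of 2699 BAT nuclei were members, together 339 of 5407 nuclei of these libraries and of 19424 in the series.

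The series tested a nuclei isolation protocol on frozen fat of rat and cow, with 6 single-nucleus libraries in all. Both brown depots came from male Dahl SS rats (strain SS/HsdMcwiCrl, labelled normal, housed at 22 °C and 50% humidity) and were snap frozen, and both carry the same batch label. No source used here gives an age or says how many animals each library holds. Both were barcoded with the Parse Evercode WT v3 chemistry, each in 3 first-round wells of its own, and both were spread over the same 2 sublibraries; no barcode was shared with another library. Each depot is 1 library, so no test of a difference between depots was possible: the 95% intervals below are exact intervals for counting error alone, and they cover neither differences between animals nor the unequal depth of single nuclei.

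Fat tissue holds, beside adipocytes, a stroma of fibroblast-like cells marked by the receptor Pdgfra that lay down the collagen scaffold. Some of them can divide and become new adipocytes. In mouse and human fat the stroma is commonly split into interstitial cells marked by Pi16 and Dpp4, cells committed to becoming adipocytes, and cells that hold adipogenesis back. In brown depots the same stroma surrounds adipocytes that burn fat through Ucp1, and around an artery it borders the adventitia.

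The members were of about the depth of their libraries. The taPVAT members held 569141 UMIs with a median of 1356 per nucleus, against 1246 (1191 to 1296) over the whole library. The BAT members held 193041 UMIs with a median of 1426, against 1706 (1652 to 1783) over the whole library. The medians of the members had overlapping intervals in the 2 depots (1227 to 1511 and 1106 to 2020). Mitochondrial genes took 0.324% of the UMIs of the taPVAT members and 0.295% of those of the BAT members. Single nuclei ranged from 342 to 14447 UMIs in taPVAT and from 450 to 14643 in BAT, so that a few deep nuclei weigh heavily in any sum, above all among the 84 of BAT.

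Under this rule members were about 3 times as frequent in taPVAT as in BAT. They made up 9.42% of the taPVAT nuclei (8.34 to 10.6%) and 3.11% of the BAT nuclei (2.49 to 3.84%), and these intervals did not overlap. The share was 8.58% to 11.0% over the 3 first-round wells of taPVAT and 2.67% to 3.60% over those of BAT, so the wells did not overlap either; wells hold nuclei of the same sample and are not replicates. With nuclei thinned to 500 UMIs before the rule was applied, the share was 6.07% of 2322 taPVAT nuclei and 1.78% of 2584 BAT nuclei; the nuclei under 500 UMIs, a larger part of taPVAT than of BAT, were left out there. The mirror nuclei, those with B of at least 3 and more than 2 times A, made up 25.7% and 30.4% of the libraries in the same order. The nuclei isolation used a spin speed that is given for taPVAT and not for BAT in the sources used here, and its part in these shares was not tested.

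Many members stood near the edge of the rule. In taPVAT 40 members had an A of exactly 3 and 55 nuclei with an A of 2 and no B fell just outside. In BAT 24 members had an A of 3 and 27 nuclei fell just outside in the same way. A further 151 taPVAT nuclei and 130 BAT nuclei had an A of 3 or more but too many B UMIs. Those nuclei were the deep ones, with medians of 2768 and 4822 UMIs. They equal 59.2% of the number of members in taPVAT and 155% in BAT. The limit on B thus left out relatively more nuclei in BAT, and the ratio of the 2 member shares depends on it. The median A of the members was 7 in taPVAT and 5 in BAT.

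The genes of the rule show what was selected and are given as a description only. Fbn1, the microfibril protein fibrillin-1, was the most abundant of the 9 in both depots, with 2047 UMIs per 1000000 UMIs of the class (CPM) in the taPVAT members against 101 CPM in the mirror nuclei, and 1388 against 91.3 CPM in BAT. Pdgfra stood at 362 CPM against 12.6 CPM in taPVAT and at 197 against 6.31 CPM in BAT. A UMI of Pdgfra was seen in 43.9% of the taPVAT members and in 29.8% of the BAT members. The 2 genes that mark interstitial cells were sparse. Pi16 was met in 40 of 255 taPVAT members and in 5 of 84 BAT members. Dpp4 had 15 UMIs in the taPVAT members and 4 in the BAT members, so that most members carried neither gene at this depth.

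**Figure D1:**
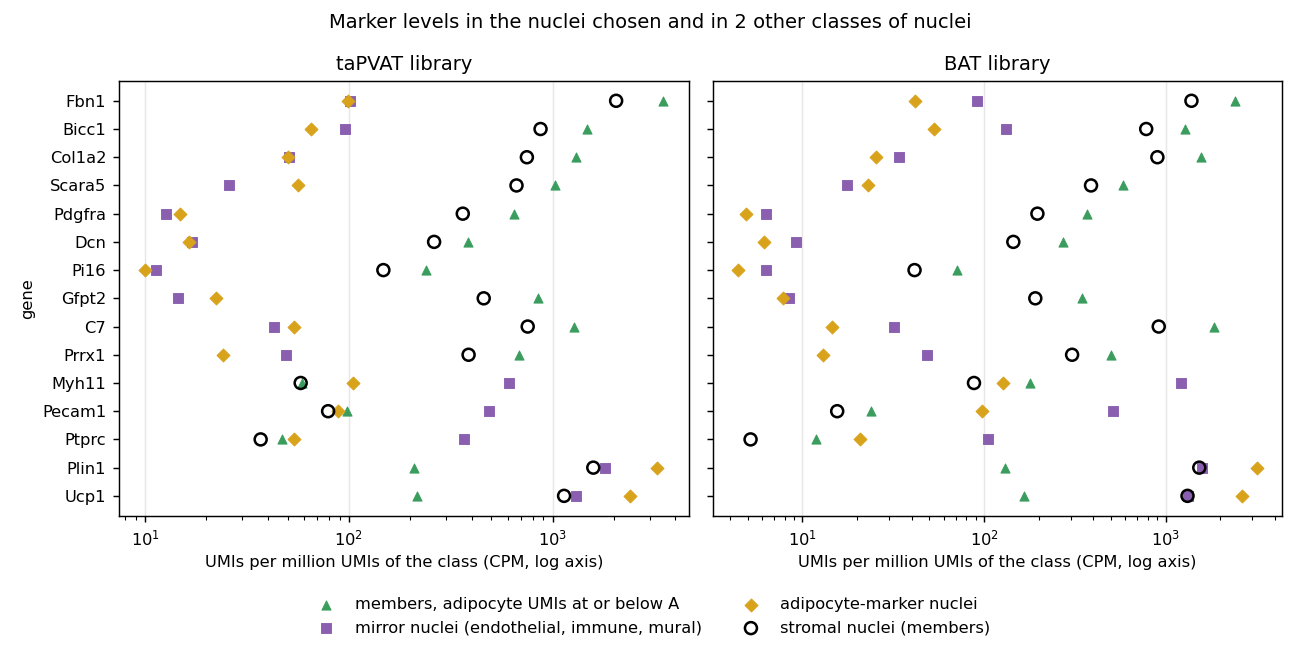
The level of 10 stromal genes, 3 genes of endothelial, mural and immune cells and 2 adipocyte genes, in CPM on a log axis, in the members (open circles), in the members whose adipocyte UMIs did not exceed A (triangles), in the mirror nuclei (squares) and in the adipocyte-marker nuclei (diamonds) of each library. The stromal genes of the members lie to the right of both other classes, while Plin1 and Ucp1 fall away from the mirror nuclei only in the members with few adipocyte UMIs; Fbn1, Bicc1, Col1a2, Scara5, Pdgfra, Dcn and Pi16 belong to the rule.

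The label held for most of the members but not for all of them. Over 16 adipocyte genes (Plin1, Ucp1, Adipoq, Cidea and others), the members had 7729 CPM in taPVAT and 7527 CPM in BAT, not far below the 8835 and 8231 CPM of the mirror nuclei. The sum was carried by few nuclei. The median member had 2 adipocyte UMIs in both depots, yet 71 of 255 taPVAT members (27.8%) and 24 of 84 BAT members (28.6%) had more adipocyte UMIs than stromal ones. These nuclei were deep, with medians of 3535 and 4186 UMIs, of which a median of 42 and 46 were adipocyte UMIs. They hold most of the member UMIs in both depots, so the counts and the values of many genes below are also given for the 184 taPVAT and 60 BAT members whose adipocyte UMIs were at or below A, called the adipocyte-poor members. Doublets were not removed here, and their part in these nuclei was not tested.

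In the adipocyte-poor members the adipocyte list fell to 1675 CPM in taPVAT (1519.9 to 1842) and 1227 CPM in BAT (1001 to 1488), which the choice of these nuclei fixes in part. Every one of its 16 genes still had a UMI in taPVAT, and 1 was at 0 in BAT. Plin1, which coats lipid droplets, had 208 and 131 CPM there against 3255 and 3169.7 CPM in the adipocyte-marker nuclei, and Ucp1 had 216 and 167 against 2403 and 2652 CPM. Reads of these abundant genes were therefore met in nuclei of every class. The 60 BAT members of this kind hold 83971 UMIs and the 184 of taPVAT 254919.

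**Figure D2:**
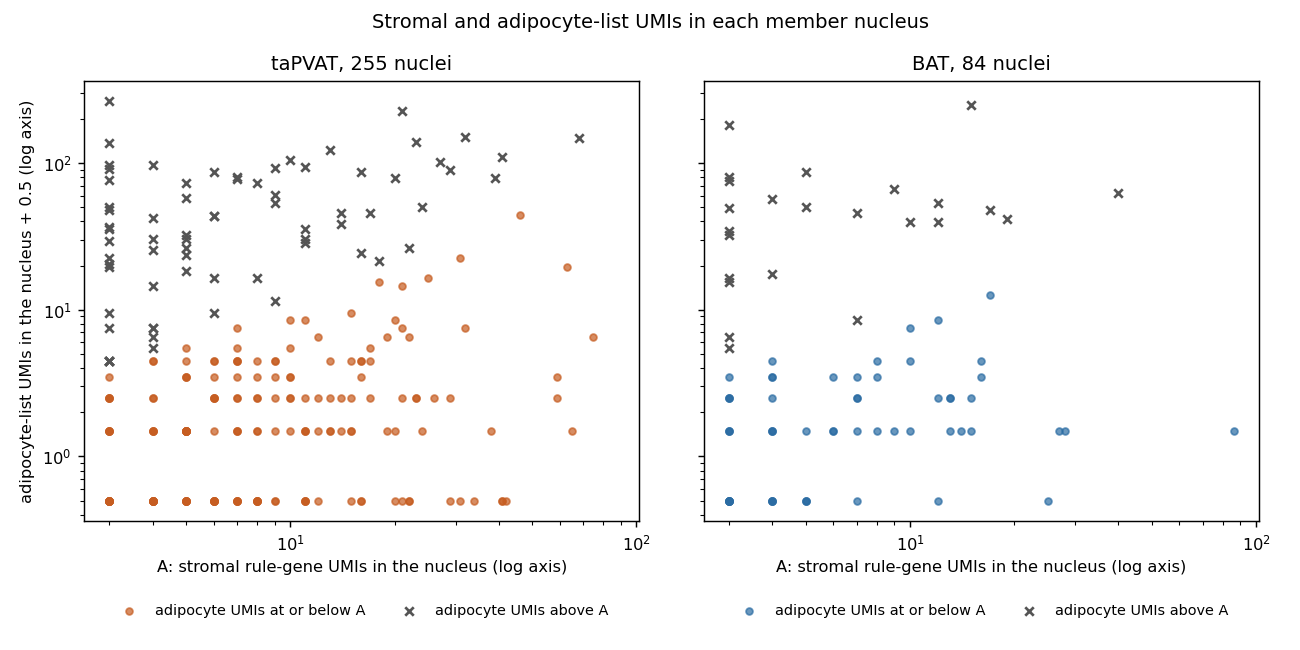
Each member nucleus by its stromal rule-gene UMIs (A, horizontal, log axis) and its adipocyte-list UMIs plus 0.5 (vertical, log axis), taPVAT on the left and BAT on the right. Crosses are the 71 taPVAT and 24 BAT members with more adipocyte than stromal UMIs, most of which lie well above the other members.

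The genes outside the rule that were highest in the members of both depots are described next. The 25 ranked highest by the ratio of members to other nuclei, taken in the depot where that ratio was lower, among genes met in at least 10% of the members of each depot, are named here as a description, since the nuclei were chosen in the same contrast. Past 2-fold over the other nuclei were 6.63% of 10234 genes in taPVAT and 13.1% of 10482 in BAT. Gfpt2, an enzyme of the hexosamine pathway, led with 23.1-fold in taPVAT and 18.9-fold in BAT. C7, a component of the complement attack complex, stood at 14.9-fold and 34.2-fold with 754 and 917 CPM. Nox4, an oxidase that makes hydrogen peroxide, stood at 14.1-fold and 28.6-fold.

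Among the 25 were the collagens Col1a1, Col14a1 and Col6a5, the procollagen processing helper Pcolce, the collagen receptors Ddr2 and Mrc2, the surface protease Fap, and the secreted proteins Fndc1 and Ccbe1. Col1a1 had 822 CPM in the taPVAT members and 751 CPM in the BAT members, 10.4-fold and 20.5-fold over the other nuclei. Ddr2, a receptor kinase that collagen switches on, had 434 and 591 CPM, 10.6-fold and 24.6-fold. The homeobox factor Prrx1, known from limb and adipose mesenchyme, had 387 and 306 CPM, and the growth factor receptor Egfr 302 and 554 CPM. Medag, named for its part in the making of fat cells, had 474 and 787 CPM. The others were Itgbl1, Evc, Abca9, Adgrd1, Ssc5d, Map7d3, Enpp3, Mnda, the pseudogene Ms4a4c-ps1 and Tnnt3, the troponin T of fast muscle. Tnnt3 goes against the label by its name, and it stood at 10.5-fold in taPVAT and 36.8-fold in BAT while the skeletal muscle list had 134 and 119 CPM in the members, below the 312 and 215 CPM of the other nuclei.

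Transcription factors were counted in the same way. Of the mesenchymal factors, 5 of 13 stood past 2-fold over the other nuclei in taPVAT and 3 of 13 in BAT, against the 6.63% and 13.1% of all genes, and their median folds were 1.38 and 1.18. For collagens and matrix genes the counts were 25 of 32 and 22 of 27, with median folds of 4.35 and 6.13. Gli2, a factor of the hedgehog pathway, had 265 CPM in the taPVAT members and 326 CPM in the BAT members, 6.01-fold and 6.66-fold over the other nuclei. Ebf1 and Ebf2, which adipocytes share with their progenitors, were abundant in the members and outside them. Ebf2 had 1595 CPM in the taPVAT members and 1569.6 CPM in the BAT members, against 1409 and 1405 CPM in the adipocyte-marker nuclei. Zfp521, a repressor of Ebf factors, had 425 and 373 CPM against 75.1 and 42.7 CPM in the adipocyte-marker nuclei.

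The 2 depots were then compared gene by gene within the members. Of 3296 genes with at least 50 UMIs over both member sets (rule genes left out), 188 (5.70%) had a CPM at least 2-fold higher in taPVAT and 69 (2.09%) at least 2-fold higher in BAT, and the median taPVAT-to-BAT ratio was 1.05. In the adipocyte-poor members 97 of 1367 genes (7.10%) were higher in taPVAT and 64 (4.68%) in BAT, with a median of 1.03. The rule genes themselves went both ways. Pdgfra was 1.84-fold higher in the taPVAT members (1.3 to 2.67) and Fbn1 1.47-fold (1.29 to 1.69), while Col1a2 had a ratio of 0.828 (0.693 to 0.994). These ratios describe nuclei picked on the same genes.

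Some of these genes were past 2-fold in the other nuclei of the depots too. Of the 3296 genes, 54 (1.64%) were at least 2-fold higher in the other nuclei of taPVAT and 6 (0.182%) in those of BAT. Of the 188 genes higher in the taPVAT members, 25 were also past 2-fold in the other nuclei of the libraries and 47 leaned the other way there. Of the 69 genes higher in the BAT members, 6 were also past 2-fold in the other nuclei, which are all 6 of that kind, and 25 leaned the other way. The median taPVAT-to-BAT ratio of all genes tested was 1.01 in the other nuclei, so a lean to either side is common there. Among the 15 genes with the largest ratio on each side, 9 of the taPVAT side and 4 of the BAT side were past 2-fold in the other nuclei. In the adipocyte-poor members 116 of the 188 and 54 of the 69 kept a 2-fold difference. Of all 3296 genes, 372 were past 2-fold in taPVAT and 180 in BAT there, without a minimum of UMIs. The adipocyte-poor members are part of the nuclei that gave the 188 and the 69. Kif15, a spindle motor, is a gene of the library-wide kind: it was 10.2-fold higher in the BAT members (5.41 to 20.6) and 13.8-fold higher in the other BAT nuclei. Foxp2, a forkhead factor, was the taPVAT counterpart, with a ratio of 5.2 in the members and 7.2 in the other nuclei.

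**Figure D3:**
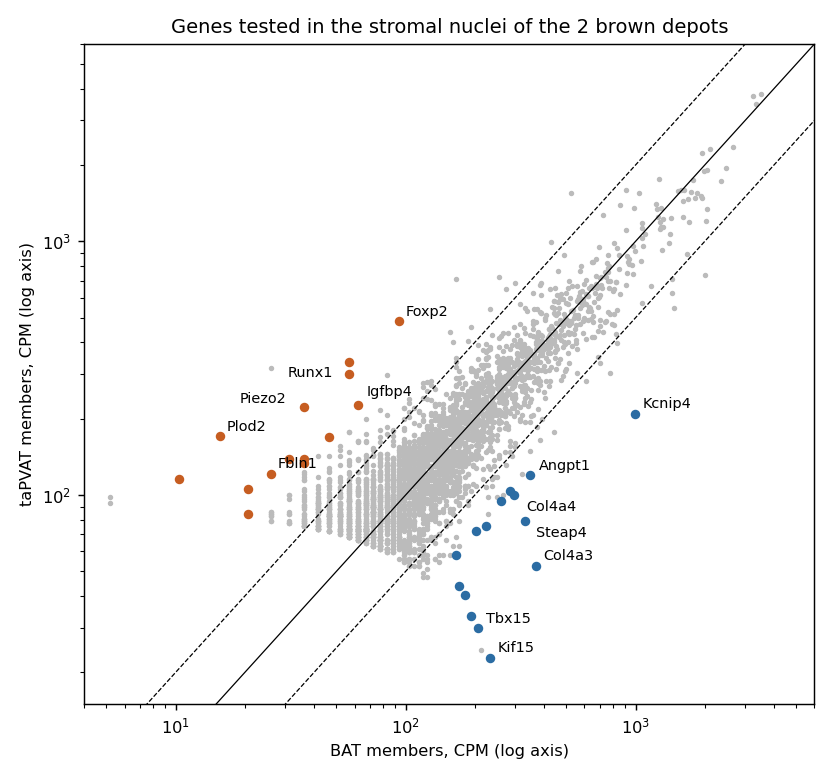
CPM of the 3296 genes tested in the BAT members (horizontal) and the taPVAT members (vertical), both on log axes, with the line of equality and 2-fold lines (dashed). Orange and blue points are 14 genes of the 15 with the largest ratio toward taPVAT and the 15 with the largest ratio toward BAT; most grey points lie between the dashed lines.

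Some matrix genes were higher in the taPVAT members. Plod2, which hydroxylates collagen lysines for cross-links, had 97 UMIs in the taPVAT members (170.4 CPM, 138 to 208) and 3 in the BAT members (15.5 CPM, 3.2 to 45.4), a ratio of 11 (3.64 to 54.1). It was met in 55 of 255 taPVAT members and in 2 of 84 BAT members. Fbln1, a fibulin of elastic fibres and basement membranes, had 69 UMIs in the taPVAT members (121 CPM, 94.3 to 153) and 5 in the BAT members (25.9 CPM, 8.41 to 60.4). The ratio was 4.68 (1.91 to 14.9) over all members, 4.61 in the adipocyte-poor members and 3.0 in the other nuclei. For both genes the intervals of the depots did not overlap. Fn1, fibronectin, had 389 and 58 UMIs, a ratio of 2.27 (1.72 to 3.05). Vcan, a large proteoglycan, had 89 and 10 UMIs, a ratio of 3.02 (1.57 to 6.51). Plod2, Fn1 and Vcan were also higher in the other taPVAT nuclei, by 2.82-fold, 2.89-fold and 2.52-fold. In the adipocyte-poor members the ratios were 23.4 for Plod2, which rests on 1 BAT UMI, 2.23 for Fn1 and 2.78 for Vcan. In sublibrary 2 Fn1 and Vcan stood under 2-fold (1.68 and 1.9). Fibrillar collagens did not follow: Col1a1 had a ratio of 1.09 (0.907 to 1.33) and Col3a1 of 0.936 (0.833 to 1.05), though Col3a1 stood at 1.67 in sublibrary 1 and 0.532 in sublibrary 2.

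Piezo2, a channel opened by mechanical force, was 6.15-fold higher in the taPVAT members. It had 127 UMIs in the taPVAT members (223 CPM, 186 to 265) and 7 in the BAT members (36.3 CPM, 14.6 to 74.7) and the ratio had an interval of 2.9 to 15.6, against a ratio of 1.75 in the other nuclei. The ratio was 4.59 in sublibrary 1 and 6.92 in sublibrary 2, and 8.73 in the adipocyte-poor members. UMIs were met in 45 taPVAT members, and 1 of them held 30. The related channel Piezo1 differed by less, with 300.5 and 202 CPM and a ratio of 1.49 (1.05 to 2.16).

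Transcription factors were among the higher genes too. Runx1, known from blood formation and from activated fibroblasts, had 171 UMIs in the taPVAT members (300.5 CPM, 257 to 349) and 11 in the BAT members (57 CPM, 28.4 to 102). The ratio was 5.27 (2.87 to 10.8), and 13 in the adipocyte-poor members. In the other nuclei the ratio of Runx1 was 2.7, and the immune list had 158 CPM in the taPVAT members and 104 CPM in the BAT members. Foxp1, a forkhead repressor, had 541 CPM (482 to 605) in the taPVAT members and 233 CPM (170.0 to 312) in the BAT members. Its ratio was 2.32 in the members and 1.06 in the other nuclei, and it stood at 2.34 and 2.19 in the 2 sublibraries and at 2.55 in the adipocyte-poor members. Both factors were thus higher in the taPVAT members than in those of BAT with intervals that did not meet.

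Some complement genes were higher in taPVAT, in the members and in the other nuclei. Of 7 tested in the members, 3 were past 2-fold in taPVAT and none in BAT, against 5.70% and 2.09% of all genes, with a median ratio of 1.96 against 1.05 over all genes tested and 2.20 for the same genes in the other nuclei. Among the adipocyte-poor members 2 of 4 passed in taPVAT, against 7.10% of all genes there, with a median of 1.84. C2, a component of the classical pathway, had 79 and 6 UMIs. C4b had 998 and 430.0 CPM, a ratio of 2.32 in the members, 2.43 in the adipocyte-poor members and 2.09 in the other nuclei. C7 was the exception, with a ratio of 0.822 (0.688 to 0.985) in the members that ran from 1.73 in sublibrary 1 to 0.441 in sublibrary 2.

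Genes of the interstitial state were taken as a list. Of 6 tested, 3 were past 2-fold in taPVAT and none in BAT, against 5.70% and 2.09% of all genes, with a median ratio of 1.73. Only 3 could be tested in the adipocyte-poor members, of which 1 passed in taPVAT, against 7.10% of all genes there, with a median of 1.12. Ackr3, a scavenger receptor for the chemokine Cxcl12, had 48 and 4 UMIs, a ratio of 4.07 (1.49 to 15.5), which was not kept with members thinned to 500 UMIs (0.939). Creb5, a bZIP factor, had 131 and 20 UMIs, a ratio of 2.22 (1.38 to 3.76). Cd34, the third, had a ratio of 2.18 whose interval reached 0.976. Of the genes under 50 UMIs, Cd55, an inhibitor of complement on cell surfaces, had 42 UMIs in the taPVAT members and 2 in those of BAT. Sema3c, a secreted guidance cue, and Limch1 had ratios of 1.28 and 0.916, and Efemp1 leaned to BAT at 0.549 (0.31 to 0.996). Pi16, a rule gene, had 84 and 8 UMIs, with ratios of 17 in sublibrary 1, where BAT had 1 UMI, and 1.59 in sublibrary 2.

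Genes of Wnt and guidance signals were compared next. Dkk2, a secreted Wnt modulator, had 101 and 11 UMIs, a ratio of 3.11 (1.67 to 6.44). Ror2, a receptor of Wnt5a, had 81 and 10 UMIs, a ratio of 2.75 (1.42 to 5.95). Dkk2 stood at 2.37 and Ror2 at 3.11 in the adipocyte-poor members, and Dkk2 was under 2-fold in sublibrary 1 (1.51). These were the 2 of 9 Wnt pathway genes tested that passed 2-fold in taPVAT, and none did in BAT, against 5.70% and 2.09% of all genes. The median was 1.02, against 1.05 over all genes tested. Among the adipocyte-poor members 3 of 6 passed in taPVAT with a median of 1.9, against 7.10% of all genes and a median of 1.03 there. Slit3, a ligand of Robo receptors, had 1599 CPM in the taPVAT members and 912 CPM in the BAT members, and its ratio of 1.75 (1.49 to 2.07) in the members stood against 0.757 in the other nuclei. Slit2 and the semaphorin receptors Plxna2 and Plxna4 were the 3 of 11 guidance genes past 2-fold in taPVAT, at 2.31, 2.32 and 3.11. Of all genes 5.70% passed there, and the median of the 11 was 1.06. For 6 guidance genes that could be tested in the adipocyte-poor members, 2 passed in taPVAT, against 7.10% of all genes. The median of the 6 was 1.89. In sublibrary 1 Slit2 and Plxna2 stood under 2-fold (1.76 and 1.98), and Slit2 did so in the adipocyte-poor members too (1.88). The ratio of Slit2 was as large in the other nuclei (2.34). Robo1, a receptor of the Slit proteins, was the 1 guidance gene of 11 past 2-fold in BAT, against 2.09% of all genes. It had 58 CPM in the taPVAT members and 139.9 CPM in the BAT members.

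Igfbp4 and Igfbp5, which bind insulin-like growth factors, went in opposite directions. Igfbp4 had 129 UMIs in the taPVAT members (227 CPM, 189 to 269) and 12 in the BAT members (62.2 CPM, 32.1 to 109), a ratio of 3.65 (2.02 to 7.24). Igfbp5 had 101 UMIs in the taPVAT members (177 CPM, 145 to 216) and 85 in the BAT members (440.3 CPM, 352 to 544), 2.48-fold higher in BAT (1.84 to 3.34). In neither gene did the intervals of the depots overlap, and both kept a 2-fold difference in the adipocyte-poor members (ratios of 4.72 and 0.314), though Igfbp5 had a ratio of 0.855 in sublibrary 1 and 0.226 in sublibrary 2. Igfbp3 had 1 UMI in the taPVAT members and 27 UMIs in 17 of the BAT members, a taPVAT-to-BAT ratio of 0.0126 (0.000307 to 0.0762). It fell short of the 50 UMIs asked of a gene for the counts above. The growth factor Igf1 itself had 485 and 741 CPM.

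Chains of collagen IV were among the genes higher in the BAT members. Collagen IV forms the sheets under epithelia, vessels and around adipocytes, and its chains are coded by gene pairs that sit head to head and share the stretch between them. Col4a3 had 30 UMIs in the taPVAT members (52.7 CPM, 35.6 to 75.2) and 71 in the BAT members (368 CPM, 287 to 464), 6.98-fold higher in BAT (4.49 to 11.1). Col4a4, its partner, had 57 UMIs in the taPVAT members (100.2 CPM, 75.9 to 129.8) and 57 in the BAT members (295 CPM, 224 to 383), 2.95-fold higher (2.01 to 4.33). In both the intervals of the 2 depots lay apart. By sublibrary the taPVAT-to-BAT ratio of Col4a3 was 0.141 and 0.132, while that of Col4a4 was 0.578 in sublibrary 1, under 2-fold, and 0.19 in sublibrary 2. The inverse ratios were 7.66 and 3.1 in the adipocyte-poor members and 1.25 and 1.17 in the other nuclei. Col4a3 was met in 28 of 84 BAT members and 23 of 255 taPVAT members, and Col4a4 in 30 and 37.

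Because both genes of the pair were past 2-fold in BAT over all members, the shared stretch between them is shown. On GRCr8, the build the deposited files use, the RefSeq starts of Col4a3 (plus strand, chr9:91323990) and Col4a4 (minus strand, chr9:91323577) lie 413 bases apart. The windows from 250 bases before to 50 bases after each start, chr9:91323740-91324039 and chr9:91323528-91323827, overlap by 88 bases. Each is printed 5′ to 3′ on its gene's strand, with the GC box GGGCGG in capitals where it was found on either strand:
Col4a3: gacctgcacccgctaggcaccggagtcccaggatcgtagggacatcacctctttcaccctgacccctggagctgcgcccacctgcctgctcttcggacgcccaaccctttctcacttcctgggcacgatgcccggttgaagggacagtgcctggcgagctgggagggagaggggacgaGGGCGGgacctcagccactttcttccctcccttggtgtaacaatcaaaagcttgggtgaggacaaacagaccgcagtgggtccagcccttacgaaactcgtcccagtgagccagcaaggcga
Col4a4: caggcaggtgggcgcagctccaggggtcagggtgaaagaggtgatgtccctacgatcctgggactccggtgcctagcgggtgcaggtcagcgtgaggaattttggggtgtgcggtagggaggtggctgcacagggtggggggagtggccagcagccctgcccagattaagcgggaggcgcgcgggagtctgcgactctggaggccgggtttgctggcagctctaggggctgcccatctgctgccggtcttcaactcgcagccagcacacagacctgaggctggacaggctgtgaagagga
The Col4a3 window held 1 GC box and the Col4a4 window none; 33.1% of 33469 RefSeq promoter windows of the same length held one. Neither window held CCAAT (37.5% of all windows, both strands) or TATAAA (14.2%). G and C made up 62% and 65.3% of the bases. A match says only that the letters are there.

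Col4a1 and Col4a2, the chains found in nearly every basement membrane, leaned the same way by less. Col4a1 had 891 CPM in the taPVAT members and 1678 CPM in the BAT members, 1.88-fold higher in BAT (1.63 to 2.17). Col4a2 had 713 and 1440.1 CPM, 2.02-fold (1.73 to 2.36). The adipocyte-poor members gave 2.83-fold and 3.02-fold, and the other nuclei 1.13-fold and 1.2-fold. Col4a5, read out after the other chains had been seen, had 19 UMIs in taPVAT and 20 in BAT. Of the neighbouring classes, Col15a1, a collagen of the basement membrane zone, was 2.11-fold higher in BAT (1.68 to 2.64), Col6a6 2.54-fold and Col5a3 2.29-fold. These differences were larger in sublibrary 2 and stood under 2-fold in sublibrary 1: the taPVAT-to-BAT ratio of Col15a1 was 0.943 in sublibrary 1 and 0.217 in sublibrary 2, that of Col6a6 0.627 and 0.242, and that of Col5a3 0.685 and 0.255. For Col4a1 it was 0.753 and 0.349. Over the list of collagens and matrix genes, 3 of 23 passed 2-fold in taPVAT (Fbln1, Fn1 and Vcan) and 2 in BAT (Col5a3 and Col6a6). Over all genes tested 5.70% passed in taPVAT and 2.09% in BAT. The median ratio of the list was 0.892, against 1.05 over all genes tested. The counts were 4 and 2 of 21 in the adipocyte-poor members, against 7.10% and 4.68% of all genes there, with a median of 0.868. In the list of committed preadipocyte genes 2 of 7 passed 2-fold in BAT (Col15a1 and Col4a2) and none in taPVAT, with a median of 0.584. Of all genes 2.09% passed in BAT and 5.70% in taPVAT. In the adipocyte-poor members 4 of the 7 passed 2-fold in BAT, against 4.68% of all genes tested there, with a median of 0.408. Over all members neither Col15a1 nor Col4a2 passed 2-fold in sublibrary 1, where Col4a2 had a ratio of 0.544. Lpl, the lipase that takes up lipid at the vessel wall, had a ratio of 0.764 over all members and 0.408 in the adipocyte-poor members, and Pparg, the master factor of fat cells, had 1.17 and 0.974.

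Tbx15, a T-box factor with a known regional pattern among fat depots, had 17 UMIs in the taPVAT members (29.9 CPM, 17.4 to 47.8) and 40 in the BAT members (207 CPM, 148 to 282). It was 6.94-fold higher in the BAT members (3.84 to 13.1) and 3.05-fold higher in the other BAT nuclei, 10.8-fold in the adipocyte-poor members, and no member of either depot held more than 3 of its UMIs. Tbx15 was the 1 positional factor outside the HOX genes with enough UMIs to be tested. Of the HOX genes, which keep the address along the body axis, 1 of 35 could be tested. Hoxa3 had 50 and 8 UMIs, a ratio of 2.12 whose interval reached down to 0.997. Positional genes were therefore mostly below what this depth can compare.

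Signals and receptors were also found on the BAT side. Angpt1, the ligand of the vessel receptor Tek, had 68 UMIs in the taPVAT members (119 CPM, 92.8 to 151) and 67 in the BAT members (347 CPM, 269 to 441), 2.9-fold higher in BAT (2.04 to 4.13) and 3.32-fold in the adipocyte-poor members. Of 23 growth factor and receptor genes 5 passed 2-fold in BAT, namely Angpt1, Igfbp5, Fgf10, Pdgfd and Nrg1, and 1 (Igfbp4) in taPVAT, against 2.09% and 5.70% of all genes in the same order, and the median ratio of the list was 0.859. Among the adipocyte-poor members 5 of 18 passed in BAT and 3 in taPVAT, against 4.68% and 7.10% of all genes there, with a median of 0.847. Fgf10, a ligand of Fgfr2, had 32 and 26 UMIs, and Pdgfd, a ligand of the PDGF receptor beta, 94 and 74. Each passed 2-fold in 1 sublibrary alone, Fgf10 with 0.704 and 0.201 and Pdgfd with 0.254 and 0.555 as taPVAT-to-BAT ratios. Nrg1 rests in part on 1 BAT nucleus with 10 of its 21 UMIs: its taPVAT-to-BAT ratio was 0.485 over all members and 1.04 in the adipocyte-poor members. Tgfb2 had 33 and 30 UMIs, 2.68-fold higher in BAT. Bmp5, with 4 and 20 UMIs, a BMP ligand, had too few UMIs for the counts, and 1 BAT nucleus held 7 of the 20.

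Hormone receptors were among them. Esr1, the estrogen receptor alpha, had 63.3 CPM in the taPVAT members (44.3 to 87.6) and 161 CPM in the BAT members (109 to 228). It was 2.54-fold higher in BAT, with intervals that did not overlap, 2.77-fold in the adipocyte-poor members and 1.18-fold in the other BAT nuclei. By sublibrary its taPVAT-to-BAT ratio was 0.56 and 0.258. Of 14 hormone and vasoactive receptors 2, Esr1 among them, passed 2-fold in BAT and 2 in taPVAT, against 2.09% and 5.70% of all genes. Their median ratio was 0.945 over all members and 0.793 in the adipocyte-poor members. Among the latter 1 of 10 passed on each side, against 4.68% of all genes in BAT and 7.10% in taPVAT. The 2 past 2-fold in taPVAT were Piezo2, listed among them as a sensor of the vessel wall, and Npr3, the clearance receptor of natriuretic peptides, which dropped to 1.65 in the adipocyte-poor members. Agtr1a, the angiotensin II receptor, was a stromal gene in both depots, with 121 and 135 CPM in the members against 32.8 and 41.6 CPM in the mirror nuclei, and the interval of its ratio included 1 (0.9, 0.566 to 1.47). Prlr, the prolactin receptor, had 54 and 50 UMIs, 2.73-fold higher in BAT, with taPVAT-to-BAT ratios of 0.585 and 0.201 in the sublibraries.

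The other genes with the largest ratios were of mixed kinds. In taPVAT they were Crocc2, Kcnip1, Aspg, Anxa2, Shank3 and Abhd5. Abhd5, which switches on the lipase of adipocytes, Aspg, an asparaginase, and Shank3, a scaffold protein, stood at 0.878, 0.494 and 1.41 in the adipocyte-poor members, and the other 12 of the 15 kept a 2-fold difference there. In BAT they were Cxcl14, Kcnip4, Ripor3, Steap4, Scn7a, Cadm2, Pcdh15, Irag1 and Zfhx4. All 15 genes of the BAT side kept a 2-fold difference in the adipocyte-poor members. Kcnip4, which binds potassium channels, was the most abundant of them, with 119 UMIs in 58 of 255 taPVAT members and 192 in 43 of 84 BAT members. Steap4, a metalloreductase, had 45 and 64 UMIs, and the chemokine Cxcl14 19 and 37. The size of the Cxcl14 difference is uncertain: its taPVAT-to-BAT ratio of 0.174 ran from 0.0483 in sublibrary 2 to 0.522 in sublibrary 1, under 2-fold, and 6 of 10 alternatives fell outside its counting interval. Kcnip4 also had 6 of 10 outside, all past 2-fold, with 0.38 and 0.105 in the sublibraries. Scn7a and Cadm2 rest on single nuclei and turned direction in sublibrary 2 (4.35 and 2.01): 15 of the 33 BAT UMIs of Scn7a and 23 of the 43 of Cadm2 came from 1 nucleus each. Taken within each sublibrary, which holds nuclei of both depots, all 15 taPVAT genes and 9 of the 15 BAT genes were past 2-fold in both.

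**Figure D4:**
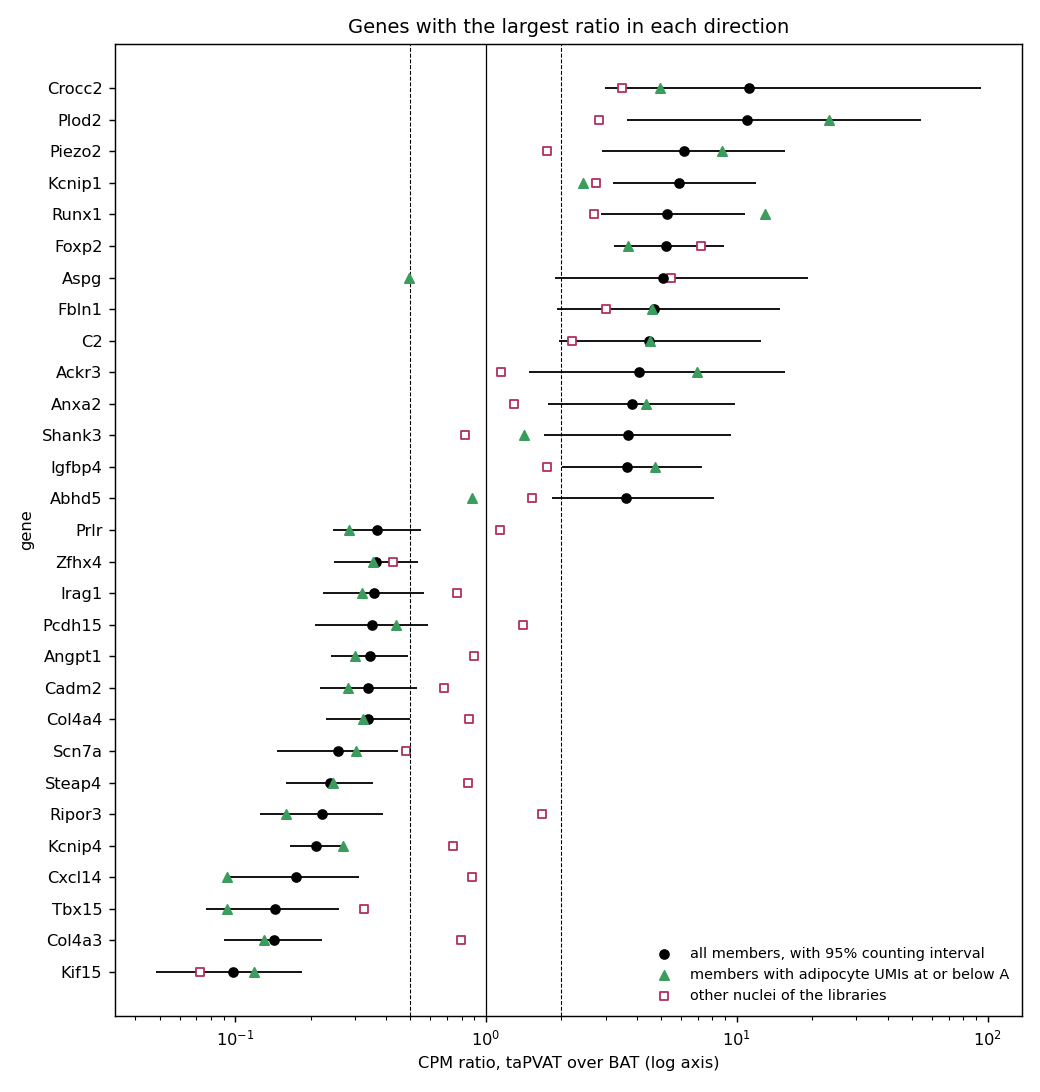
CPM ratio of taPVAT to BAT on a log axis for 14 of the 15 genes with the largest ratio toward taPVAT and the 15 with the largest ratio toward BAT, over all members (circles, with the 95% counting interval as a line), in the adipocyte-poor members (triangles) and in the other nuclei (squares); the dashed lines mark 2-fold. Triangles fall on the same side of 1 as the circles except for Aspg and Abhd5, while most squares of the genes higher in BAT lie nearer to 1.

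Markers of other cells moved with the depots as well. Of the 5 endothelial genes with enough UMIs, 4 were at least 2-fold higher in the taPVAT members, against 5.70% of all genes, with a median ratio of 2.26. Of the 5 only Mecom could be tested in the adipocyte-poor members, where its ratio was 0.918. Mecom was not among the 4, with 372 CPM in the taPVAT members and 347 CPM in the BAT members. Over all 9 endothelial genes the sum was 894 CPM in taPVAT (818 to 976) and 575 CPM in BAT (473 to 692), with Mecom the most abundant and 1 gene, Cdh5, at 0 in BAT. The other nuclei leaned the opposite way, with 1656 and 1794 CPM. Tek, Cyyr1 and Egfl7, 3 of those 4, turned below 1 when members with any B UMI were left out (Tek 0.707, Cyyr1 0.915) or members were thinned to 500 UMIs (Cyyr1 0.822, Egfl7 0.587). The rule allows more B UMIs where A is higher, and Pecam1 had 45 and 3 UMIs. Mural genes summed to 1246 and 1155 CPM, mesothelial genes to 58 and 36.3 CPM with Wt1 leading, lymphatic genes to 84.3 and 51.8 CPM, and Schwann cell genes, mainly Mbp, to 358 and 539 CPM. Their part in the gene differences was not tested.

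Within each depot the members fell into subsets with different genes. Clustering of each library's members alone (Leiden, resolution 0.5) gave 5 subsets in taPVAT and 3 in BAT. Since the clusters were made from the same counts, their leading genes are a description and their sizes are not compared between depots. Subset 1 of taPVAT (59 nuclei) was led by Gfra2, Gfpt2, Tnfrsf11b, Bcat1, Vcan, Cd34, Mnda and Enpp3. It had the highest sums of the interstitial list (2126 CPM) and of the rule genes (10292 CPM) among the 5. Fbn1 reached 5463 CPM there and Creb5 699 CPM. Pi16 stood at 270.4 CPM in this subset and at 297 CPM in subset 4.

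Subset 2 of taPVAT (46 nuclei) and subset 2 of BAT (26 nuclei) shared several high genes. The first was led by Col6a5, Fgf10, Ntf3, Smoc2, Gria4, Col6a6, Rgs6 and Pappa, and the second by Bmp5, Stmn2, Steap4, Frmpd4, Pth1r, Col6a5, Mylip and Heyl. Col6a6 had 1516 CPM in the one and 2635 CPM in the other, Fgf10 345 and 468 CPM, and Prlr 390.1 and 936 CPM, each above the other subsets of its library. In both the interstitial list stood at 525 and 542 CPM, not as low as the 423 and 302 CPM of subset 3, and no UMI of Pi16, Dpp4 or Vcan was seen. The list of committed preadipocyte genes stood at 6542 and 14505 CPM, against 6530.3 and 6987 CPM in subset 3 of each depot, so that in taPVAT it did not set subset 2 apart. Col15a1 stood at 1050.4 and 2290.2 CPM, above the other subsets of each depot. Lpl stood at 1185 and 2438 CPM, below the 2358 and 2672 CPM of subset 3 and in taPVAT also below subset 5 (1339 CPM). Plin1 stood at 735 and 148 CPM against 2771 and 2807 CPM in subset 3. Several genes of the BAT side of the depot comparison were high in this subset: Steap4 had 1305 CPM in it against 71.1 CPM in subset 1 of BAT, Kcnip4 2216 against 569 CPM, and Cxcl14 665 against 124 CPM. Col4a3 was less bound to it, with 862 and 373 CPM, and Tbx15 was alike in both (345 and 338 CPM).

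Subset 4 of taPVAT (56 nuclei) was led by Eln, Ltbp2, Myo1d, Mical2, Plod2, Acvr1b, Fbln1 and Cdh11. Eln, the elastin of the arterial wall and adventitia, had 563 CPM there and 15 CPM in subset 2. Piezo2 had 706 CPM, against 233 CPM in subset 1, but 30 of its 69 UMIs in subset 4 came from 1 nucleus. It was met in 19.6% of the nuclei of subset 4, in 22% of subset 1 and in 21.7% of subset 5. Subset 1 of BAT (36 nuclei) had Fgf12, Fndc1, Ptprj, Nalcn, Nckap5, Cdh11 and Cp among its leading genes. It also held most of the elastin of BAT, with 533 CPM, and most of its interstitial list (1386 CPM), but 17.8 CPM of Plod2. At this resolution BAT gave no separate subsets for interstitial and for elastin-rich nuclei.

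The remaining subsets were led by other genes. Subset 3 of taPVAT (48 nuclei, led by Lgals12, Acp5, Hey2, Fanca, Sirt3, Fxyd1, Mpo and Med12l) and subset 3 of BAT (22 nuclei, led by Col7a1, Agpat2, Mybpc2, Irf4, Sdc4, Cpt1b, Adrb3 and Sh2b2) were the deep nuclei, with medians of 3508 and 4186 UMIs. Of these nuclei 42 of 48 and 22 of 22 had more adipocyte than stromal UMIs. Their adipocyte list stood at 13525 and 13486 CPM, against 15312 and 15301 CPM in the adipocyte-marker nuclei, and they held 38.2% and 49.8% of all member UMIs. Adrb3, the adrenergic receptor of adipocytes, and Cpt1b, which carries fatty acids into mitochondria, are genes of working brown adipocytes. They were leading genes of the BAT subset but not of the taPVAT one. In both depots the level of the adipocyte list in these nuclei goes against the name of progenitors. Subset 5 of taPVAT (46 nuclei) was led by Cadm2, Nrg1, Cadps2, Ighm, Csmd3 and the mitochondrial Mt-co3, Mt-cyb and Mt-nd5, with mitochondrial genes at 0.98% of its UMIs against 0.192% to 0.244% in the other 4.

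**Figure D5:**
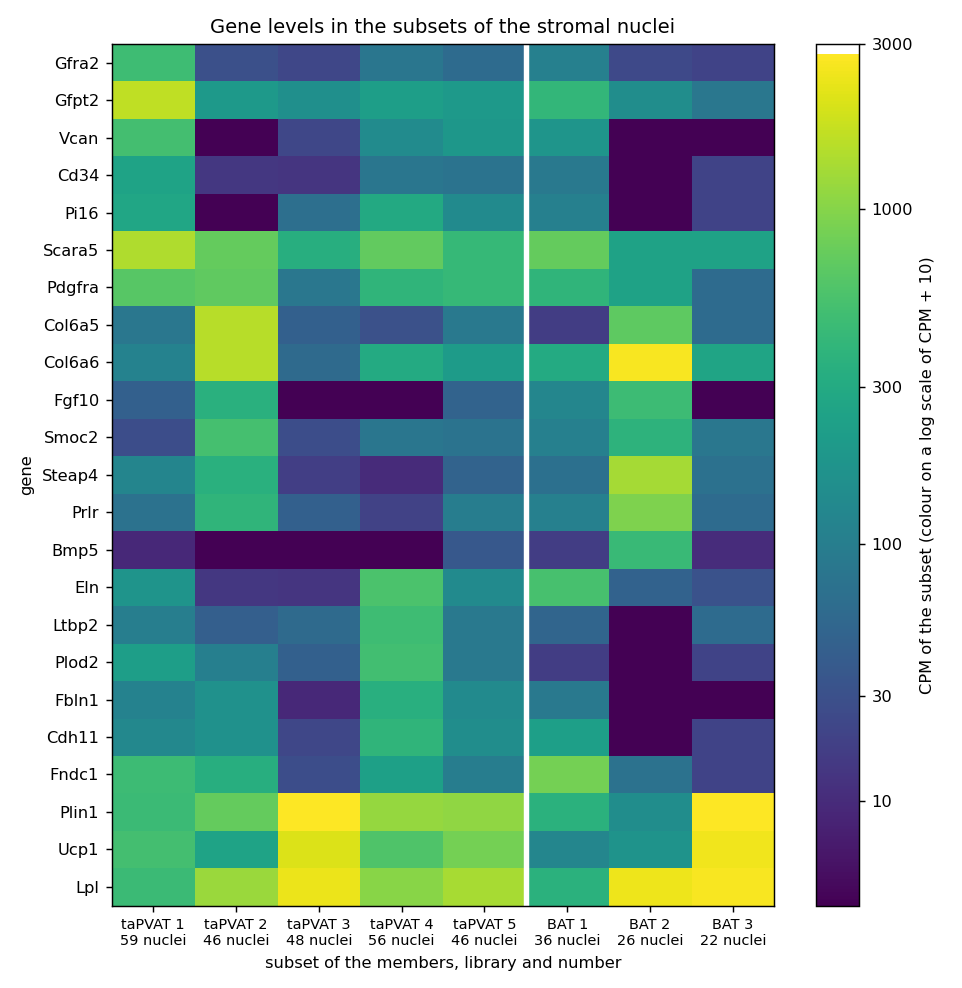
CPM of 23 genes (rows) in the 5 subsets of the taPVAT members and the 3 subsets of the BAT members (columns, with the number of nuclei), coloured on a log scale of CPM + 10. Col6a5, Col6a6, Fgf10, Smoc2, Steap4 and Prlr are high in subset 2 of both depots, Plin1 and Ucp1 in subset 3 of both.

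Single genes of dividing cells were near the limit of what this depth can count. Of 8 cell cycle genes 1 (Kif15, above) reached 50 UMIs over the members. The 8 genes summed to 165 CPM in the taPVAT members (133 to 202), against 68.6 CPM in the other taPVAT nuclei. In BAT the sum was 254 CPM in the members (188 to 336) and 264 CPM in the other nuclei, mainly Kif15. Subset 2 of taPVAT held 45 of the 94 UMIs of the taPVAT members. Cenpf, a kinetochore protein made before division, had 23 UMIs in the taPVAT members, in 7 nuclei of which 1 held 12, and none in the BAT members. With a floor of 3 counts put in for the BAT members, the taPVAT-to-BAT ratio of Cenpf was 2.6. That value depends on the floor chosen and on the 1 nucleus with 12 UMIs, and it is not a lower limit.

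The same rule was run on the white fat libraries of the rat for orientation. It found 126 of 3028 nuclei of the mesenteric perivascular fat (mesPVAT) barcoded with Parse, 226 of 5887 of the mesPVAT run on 10x Chromium, and 35 of 2805 of the retroperitoneal (RP) fat. These nuclei had medians of 544, 226 and 451 UMIs, far below those of the brown depots, so their shares are not ranked against them. The values follow side by side and are not compared. Steap4 had 10.6 CPM in the mesPVAT members on Parse, with 79.1 CPM in taPVAT and 332 CPM in BAT. Tbx15 had 31.8 CPM there, with 29.9 and 207 CPM in the brown depots in the same order. The mesPVAT members on Parse held 94291 UMIs in all, so the levels of Steap4 and Tbx15 there rest on very few UMIs. Piezo2 had 308 CPM there, with 223 and 36.3 CPM. The interstitial list summed to 1198 CPM on Parse, with a counting interval from 988 to 1441, against 940.0 CPM in taPVAT (862 to 1023) and 668 CPM in BAT (558 to 794). On 10x it came to 8248 CPM, of which Ackr3 gave 3935.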

How the data were processed

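Nuclei of the rat depots were barcoded with the Parse Evercode WT v3 kit and sequenced in the same 2 sublibraries. The values are raw UMI counts per gene and nucleus, which the authors made with the Parse pipeline on the GRCr8 genome and deposited as sparse matrices (38697 genes); the 10x library came from Cell Ranger. No further filter was applied to the deposited nuclei, and no doublet caller was run here. UMIs were summed over the members of each library and scaled to CPM. The taPVAT library held 5100216 UMIs and the BAT library 6317970. With 1 library per depot no test was made; intervals are exact Poisson (levels), Clopper-Pearson (shares) and conditional binomial (ratios), at 95%, and a gene was counted as higher at 2-fold. The ratio step was tested on simulated data. Members and lists were chosen with earlier results of these data known. Of 428 list symbols 10 were absent from the files.

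Genes named are those of the lists, the 25 leading genes outside the rule, the 15 with a symbol and the largest ratio in each direction (mitochondrial, Y-linked and haemoglobin genes and rule genes left out), and the 8 leading genes of each subset; Col4a5 was added after its values were seen, and 3 genes that the rule names are not reported here. Adipocyte-marker nuclei had at least 10 UMIs over the adipocyte list and more than 2 times A plus B. Subsets came from 1000 UMIs per nucleus on a log scale, 2000 variable genes, 10 principal components and 15 neighbours (scanpy 1.11.5, igraph 0.11.9, Python 3.11.15, scipy 1.17.1). Promoter windows are RefSeq sequences, matched by symbol for both genes searched.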

Additional observations from a re-analysis of the deposited data

Results flagged for a closer look

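Among the 30 genes with the largest ratios, 3 leaned one way in the members and the other way in the remaining nuclei of the same libraries, with neither interval including 1; the difference between the ratios was not tested. Shank3 had a taPVAT-to-BAT ratio of 3.68 in the members and 0.822 in the other nuclei. Ripor3 stood at 0.223 in the members and 1.68 in the other nuclei. Pcdh15 stood at 0.35 and 1.4 in the same order.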

How the results depend on the processing

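No paired analysis was possible because each depot is 1 library. The member share of taPVAT was 6.98% with A of at least 5, 5.24% with B at 0 and 6.07% in nuclei of at least 500 UMIs thinned to 500; that of BAT was 1.74%, 1.78% and 1.78%. Both moved little under the study's filters on nuclei and within each sublibrary. The count of genes higher in taPVAT was 365 with B at 0, 372 without the adipocyte-rich members, 312 and 423 in sublibraries 1 and 2, 471 after thinning, 651 and 57 with a minimum of 20 and 100 UMIs, and 41 at 3-fold. The count higher in BAT was 108 with A of at least 5, 159 with B at 0, 180 without the adipocyte-rich members, 104 and 210 in the sublibraries, 296 after thinning, 111 by the mean of each nucleus's CPM, 292 and 30 with a minimum of 20 and 100 UMIs, and 9 at 3-fold. Unless another minimum is named, these counts run over the same 3296 genes, so alternatives that leave fewer UMIs compare some genes on few counts; over the 1367 genes with 50 UMIs in the adipocyte-poor members the counts were 97 and 64.

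Of 63 named genes under 10 alternatives (630 ratios), 540 lay within the counting interval of the reported ratio, 74 outside it and 16 on the other side of 1; 53 genes kept their direction in all 10 and 20 stayed past 2-fold. The turned ratios were Abhd5 (0.878 without adipocyte-rich members, 0.704 thinned), Aspg (0.494) and Nrg1 (1.04) without adipocyte-rich members, Nrg1 (4.23), Ackr3 (0.939), Cspg4 (0.822), Cyyr1 (0.822) and Egfl7 (0.587) thinned, Cyyr1 (0.915), Tek (0.707) and Scn7a (2.33) with B at 0, Scn7a (6.4) and Cadm2 (1.36) with A of at least 5, and Scn7a (4.35) and Cadm2 (2.01) in sublibrary 2; the cause was not tested. Leiden resolutions of 0.3 and 1 gave 4 and 7 subsets in taPVAT and 3 and 4 in BAT. The BAT members held fewer UMIs (193041) than the taPVAT members (569141). The precision of each ratio rests mainly on the smaller of its 2 counts, which for several genes higher in BAT was the taPVAT one.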
